A study of Homo sapiens with 6 samples.

Results

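The NRF2 pathway was described in HT29 cells, an established human colorectal adenocarcinoma line, through 10 genes: NFE2L2, which encodes the transcription factor NRF2, its inhibitor KEAP1, and the classic targets HMOX1, NQO1, GCLC, GCLM, TXNRD1, SRXN1, SLC7A11 and PIR. They were taken by symbol from the array annotation and are read by 21 of the 54613 probe sets tested, or 10 of 19775 genes. The list was drawn up with earlier results of these data known. Of 6 cultures, 3 received 500 µg of a polyphenolic cocoa extract and 3 were controls. The controls are called untreated in their titles, while the treatment protocol names saline. All 6 cultures were plated at 300000 cells, grown in F12 medium with 7% serum and harvested at 24 h, and each was read on 1 oligonucleotide array. The labels state neither the volume for the extract nor whether the cultures of a group were independent. The p-values therefore reflect only how far these cultures differ from each other, and that spread may be technical.

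NRF2 is the main transcription factor of the response to oxidants and electrophiles. KEAP1 holds NRF2 in the cytoplasm and marks it for degradation, and reactive compounds, plant polyphenols among them, can modify cysteines of KEAP1 and so let NRF2 accumulate. NRF2 then pairs with small MAF proteins on a DNA sequence called the antioxidant response element (ARE) and raises transcription of genes for glutathione synthesis, thioredoxin recycling, quinone reduction and heme breakdown. Because this control acts on the NRF2 protein, its messenger RNA need not change, and the transcripts of its targets are the usual readout of the pathway on an array. In bulk RNA, fewer cells with a transcript and less of it per cell cannot be told apart.

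The ARE core is shown first because it is the sequence on which NRF2 acts. Promoter windows of 250 bases before to 50 bases after a start site, from RefSeq (GRCh38.p14), were found for 8 of the 10 members, as 11 windows. HMOX1 and SLC7A11 had no entry. Sequence outside the windows was not searched, so a window without a match does not mean a gene without the element. The letters TGACNNNGC, searched on both strands, were present in 5 of the 11 windows, those of GCLM, KEAP1, TXNRD1 (both of its windows) and PIR, and in 13.3% of all 35116 windows. In the stretches below, written 5′ to 3′ on the strand of the gene, capitals mark the match. Positions count from −1 at the last base before the start site and from 1 at the start site.
GCLM, chr1:93909431-93909504, minus strand, match from −34: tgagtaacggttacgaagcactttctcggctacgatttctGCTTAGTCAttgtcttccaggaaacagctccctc
KEAP1, chr19:10502772-10502842, minus strand, match from −31: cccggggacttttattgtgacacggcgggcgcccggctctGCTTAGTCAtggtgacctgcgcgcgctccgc
TXNRD1, chr12:104286890-104286978, plus strand, match from −102: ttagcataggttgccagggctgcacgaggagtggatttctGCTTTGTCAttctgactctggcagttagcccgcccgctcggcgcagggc
TXNRD1, chr12:104215640-104215728, plus strand, match from −99: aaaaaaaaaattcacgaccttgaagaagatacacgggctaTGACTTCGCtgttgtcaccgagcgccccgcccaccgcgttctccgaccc
PIR, chrX:15493288-15493317, minus strand, match from 27: gccgcgaagcGCTGAGTCAcggtgaggcta

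GCLM and KEAP1 carried the same 9 letters, GCTTAGTCA, which read the ARE core on the opposite strand. The match of PIR lay past the start site and overlapped a match to the AP-1 letters TGANTCA, which 7.71% of all windows held. KEAP1 and TXNRD1 each have more than 1 window. The KEAP1 window shown held a further match at −54 and its other window none, and the TXNRD1 window with the match at −99 held a further match at −8. These matches describe the sequence, and no binding was measured. Of the members with the letters, PIR was higher with cocoa, while GCLM, KEAP1 and TXNRD1 did not pass the test at gene level. The TXNRD1 probe set 201266_at was lower (limma adjusted p over probe sets 0.0349). Whether these genes differ in response was not tested.

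In the deposited table each probe set's log2 expression is centred on its own median over the 6 arrays. Such values give differences between arrays and no levels, so genes cannot be ranked by abundance and the presence of colon markers cannot be tested. By limma none of 7 colon epithelial markers changed (1 higher at an unadjusted p below 0.05), none of 5 fibroblast markers did (0 at that level), and of 3 leukocyte markers 1 rose, CD14 (log2 difference 0.75, SE 0.114, limma adjusted p = 0.00321), a receptor for lipopolysaccharide that epithelial cells can also express. The signal of the 18S ribosomal RNA control probe sets was 3.31 in cocoa array 2 and 1.40 in cocoa array 3, above the highest control (0.51), and −0.51 in cocoa array 1. The 5′ minus 3′ difference of the actin and GAPDH control probe sets was lowest in the same arrays, at −0.26 and −0.052, while the other 4 ranged from 0.009 to 0.033.

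With cocoa extract, PIR rose and HMOX1 fell, and the other 8 members did not pass the test at gene level. Thus 2 of 10 members changed (limma, Benjamini-Hochberg adjusted p below 0.05 over 19775 genes), against 13.5% of all genes. The 1 member that rose stands against 7.36% of all genes that rose, and the 1 that fell against 6.12% that fell. With 1 member in each direction, neither count is read as a result about the set. Of the 10 log2 differences 2 were above 0 and 8 below, with a median of −0.127, against a median of −0.012 over all genes. Values of the 2 groups were fully separate for 5 of the 10 members (PIR, HMOX1, SRXN1, GCLC and TXNRD1), as they were for 32.5% of all genes. Of these 5, PIR was the only member with higher values in cocoa.

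**Figure D1:**
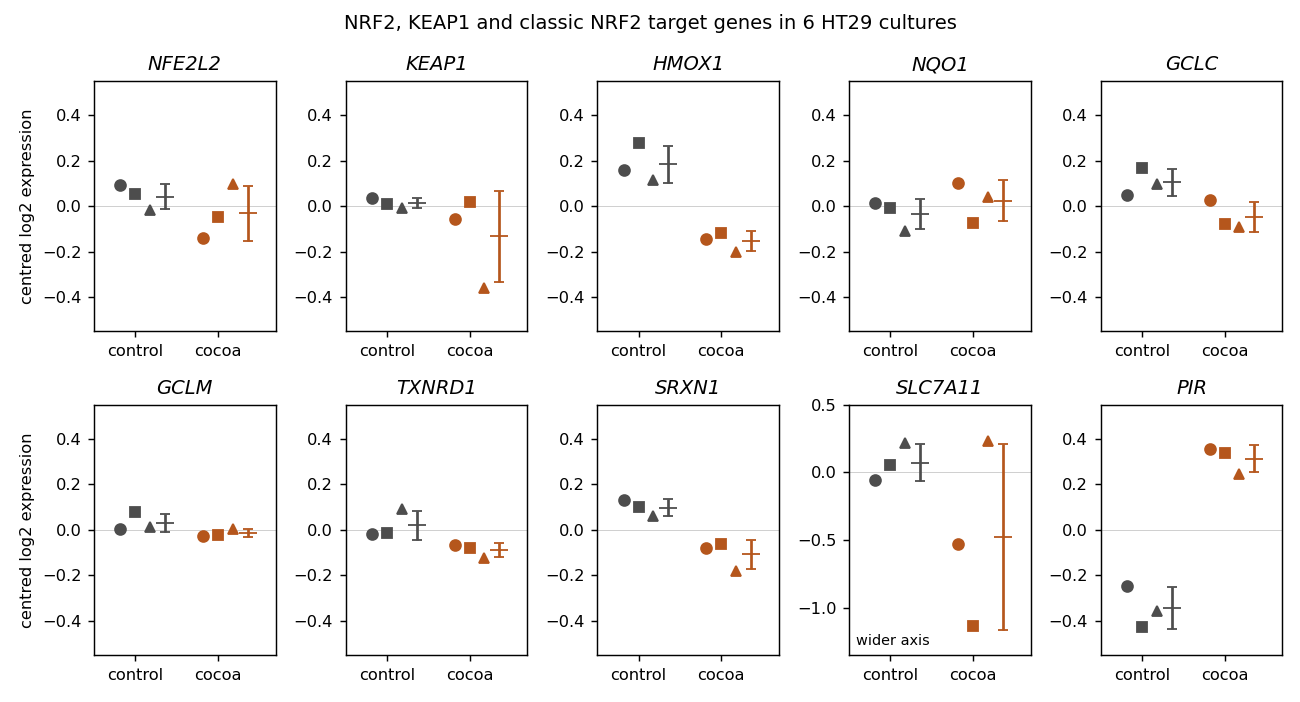
Centred log2 expression of the 10 genes in each culture, with circles, squares and triangles for replicates 1, 2 and 3 (the numbers do not pair the groups) and bars for the mean ± SD of 3 arrays; the SLC7A11 panel has a wider axis. PIR lies between 0.245 and 0.356 in the cocoa cultures and between −0.427 and −0.245 in controls, and SLC7A11 spreads from −1.138 to 0.234 among the cocoa cultures.

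PIR encodes pirin, an iron-containing nuclear protein that acts as a redox-responsive cofactor of transcription. Its value was −0.245, −0.427 and −0.358 in control arrays 1, 2 and 3, and 0.356, 0.337 and 0.245 in cocoa arrays 1, 2 and 3. All 3 cocoa arrays stood above all 3 controls by far more than the spread within either group (SD 0.0919 in controls and 0.0593 in cocoa). The fold change was 1.58 (log2 difference 0.66, 95% confidence interval 0.49 to 0.82, limma adjusted p = 0.00065, n = 3 arrays per group). The call held whichever single array was removed (adjusted p 0.00197 to 0.00532) and with the 18S signal as a covariate (0.00491). PIR rests on the single probe set 207469_s_at, and the _s_at in its name means that the probes may also match other transcripts. It was also past the threshold when probe sets were tested singly (adjusted p = 0.00308).

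HMOX1 encodes heme oxygenase 1, the inducible enzyme that opens the heme ring to biliverdin, iron and carbon monoxide. It read 0.159, 0.276 and 0.116 in the controls and −0.144, −0.116 and −0.201 with cocoa. The lowest control was thus above the highest cocoa array. The level was 1.26-fold lower with cocoa (log2 difference −0.34, 95% confidence interval −0.49 to −0.18, limma adjusted p = 0.0121). The gene has 1 probe set, 203665_at, at an adjusted p of 0.0361 among all probe sets, which rose above 0.05 whichever single array was removed (0.0597 to 0.154) and under either RNA covariate (18S 0.113, 5′ to 3′ 0.101). The gene-level call was lost without control array 2, the highest of the 6 (adjusted p = 0.0645, against 0.023 to 0.0434 without each of the other arrays). It was kept when the 18S signal (0.0449) or the 5′ to 3′ difference (0.0447) entered as a covariate. With cocoa arrays 2 and 3 both left out, the log2 difference was −0.33, from 1 cocoa array that is assumed to vary like the controls.

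NFE2L2 itself read 0.091, 0.052 and −0.018 in the controls and −0.141, −0.050 and 0.096 with cocoa, so the groups overlapped. Its log2 difference was −0.073 (95% confidence interval −0.25 to 0.10, limma adjusted p = 0.622). Its 3 probe sets did not read alike: 1567013_at gave −0.26 (adjusted p over probe sets 0.157), while 1567015_at gave 0.032 and 201146_at gave 0.0084. A further probe set is annotated to both NFE2L2 and the kinase gene CSNK2A1 and was not counted for either. It read 0.011 to 0.016 in the controls and −0.011, −0.76 and −0.24 in cocoa arrays 1, 2 and 3, and was thus lowest in the arrays with raised 18S signal.

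KEAP1 is the adaptor that brings NRF2 to the CUL3 ubiquitin ligase. Its single probe set read 0.036, 0.008 and −0.008 in the controls and −0.058, 0.020 and −0.362 with cocoa. Cocoa arrays 1 and 3 were below all controls, array 3 by far the more, and cocoa array 2 lay within the control range. The log2 difference was −0.15 (95% confidence interval −0.36 to 0.073, limma adjusted p = 0.394), and −0.032 without cocoa array 3.

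NQO1, the quinone reductase most often used as a marker of NRF2 activity, had overlapping groups, with 0.012, −0.008 and −0.108 in the controls and 0.103, −0.075 and 0.041 with cocoa. Its log2 difference was 0.058 (95% confidence interval −0.105 to 0.221, limma adjusted p = 0.69). The interval leaves room for a small change in either direction. Of its 3 probe sets only 201468_s_at separated the groups, with −0.073, −0.017 and −0.126 in controls and 0.017, 0.108 and 0.114 with cocoa, and its difference of 0.15 did not pass over all probe sets (adjusted p = 0.292).

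**Figure D2:**
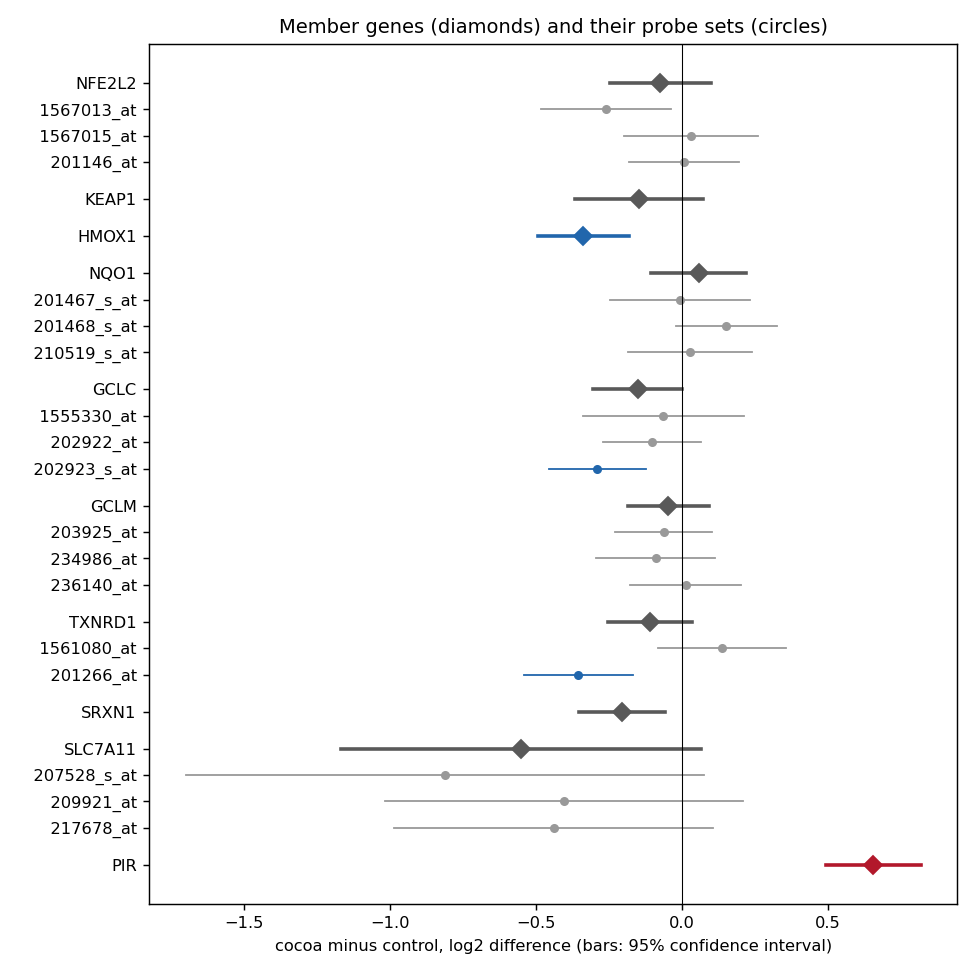
Log2 difference, cocoa minus control, of each member gene (diamonds) and, for genes with several, of each probe set (circles), with 95% confidence intervals; blue marks an adjusted p below 0.05 with a fall, red with a rise. At gene level only HMOX1 (−0.34) and PIR (0.66) are coloured, and 1 probe set each of GCLC and TXNRD1 is.

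Glutathione synthesis depends on GCLC, the catalytic subunit of glutamate-cysteine ligase, on GCLM, its modifier subunit, and on cystine brought in by SLC7A11. GCLC read 0.049, 0.167 and 0.097 in the controls and 0.029, −0.079 and −0.092 with cocoa. The groups did not overlap, but cocoa array 1 and control array 1 were only a little apart. The log2 difference was −0.15 (95% confidence interval −0.30 to 0.002, limma adjusted p = 0.189). Among its probe sets, 202923_s_at fell by 0.29 on the log2 scale (adjusted p over probe sets 0.0463), 202922_at gave −0.10 (0.497) and 1555330_at −0.063 (0.834). The call of 202923_s_at was lost whichever single array was removed (0.0663 to 0.183).

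GCLM was the steadiest of the members, with 0.002, 0.077 and 0.014 in the controls and −0.029, −0.021 and 0.005 with cocoa. The difference of −0.046 (95% confidence interval −0.18 to 0.092, limma adjusted p = 0.711) was close to the SD of the controls (0.0406). Its 3 probe sets lay between −0.089 and 0.014.

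TXNRD1 encodes cytosolic thioredoxin reductase, the selenoenzyme that regenerates reduced thioredoxin. Its gene value was −0.020, −0.013 and 0.091 in the controls and −0.066, −0.078 and −0.123 with cocoa, a difference of −0.11 (limma adjusted p = 0.332). That mean joins probe sets which pointed in opposite directions. The probe set 201266_at read 0.112, 0.171 and 0.106 in the controls and −0.106, −0.296 and −0.271 with cocoa, and was 1.28-fold lower (log2 difference −0.35, adjusted p over probe sets 0.0349). The other, 1561080_at, gave 0.14 (adjusted p = 0.48). Leaving out 1 array, the adjusted p of 201266_at ran from 0.0243 to 0.142 and stayed below 0.05 in 1 of the 6 fits.

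SRXN1 encodes sulfiredoxin, which repairs over-oxidised peroxiredoxins. Its probe set read 0.132, 0.101 and 0.061 in the controls and −0.080, −0.061 and −0.180 with cocoa. Every cocoa array was lower than every control, and the level was 1.15-fold lower (log2 difference −0.21, 95% confidence interval −0.35 to −0.059). The gene did not pass over all genes (limma adjusted p = 0.0697), and it did with array weights (0.0386). It did not with the 18S (0.191) or the 5′ to 3′ covariate (0.135), nor in any fit without 1 array (0.0828 to 0.197).

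Counted by probe sets, 4 of 21 changed, against 7.98% of all 54613 probe sets, and 3 of the 4 fell (HMOX1, GCLC and TXNRD1), against 3.3% of all probe sets that fell. Probe sets of 1 gene share their transcript and are not independent. The count dropped to 1, PIR alone, with the 18S or the 5′ to 3′ covariate, and ran from 1 to 3 when 1 array was left out.

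SLC7A11, the transport chain of the cystine-glutamate exchanger xCT, had the widest spread of the members. It read −0.055, 0.055 and 0.218 in the controls and −0.530, −1.138 and 0.234 in cocoa arrays 1, 2 and 3. Cocoa arrays 1 and 2 were below all controls, and cocoa array 3 was above all controls. The SD among cocoa arrays was 0.687, the 6th largest of 19775 genes (median 0.0956), while the control SD of 0.138 ranked 3206th. The log2 difference of −0.55 (95% confidence interval −1.17 to 0.065, limma adjusted p = 0.237) is therefore not larger than the replicate spread. Without cocoa array 3 it was −0.91 (adjusted p = 0.0134), and across removals of a single array the adjusted p ran from 0.0134 to 0.552. With cocoa arrays 2 and 3 both left out, which leaves 1 cocoa array and no spread among cocoa arrays, the log2 difference was −0.60. The split was read by all 3 probe sets: 207528_s_at gave −0.401, −1.769 and 0.060 in cocoa arrays 1, 2 and 3, 209921_at gave −0.601, −0.814 and 0.392, and 217678_at gave −0.587, −0.831 and 0.249. The lowest array was the one with the highest 18S signal, and the next lowest had an 18S signal within the control range. The log2 difference was −0.32 (adjusted p = 0.63) once the 18S signal was a covariate, and −0.22 (0.70) once the 5′ to 3′ difference was.

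SLC3A2, the heavy chain that carries SLC7A11 and other transporters to the membrane, ranked its cocoa arrays in the same order. It read 0.192, 0.184 and 0.023 in the controls and −0.402, −0.694 and −0.023 in cocoa arrays 1, 2 and 3. Here cocoa array 3 lay just below the lowest control. SLC3A2 fell by 0.51 on the log2 scale (SE 0.145, limma adjusted p = 0.0495). Removal of single arrays gave adjusted p-values of 0.0067 to 0.149, above 0.05 in 5 of 6 cases, and the 18S covariate gave 0.248. The single SLC3A2 probe set was at a limma adjusted p of 0.0872 over all probe sets.

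**Figure D3:**
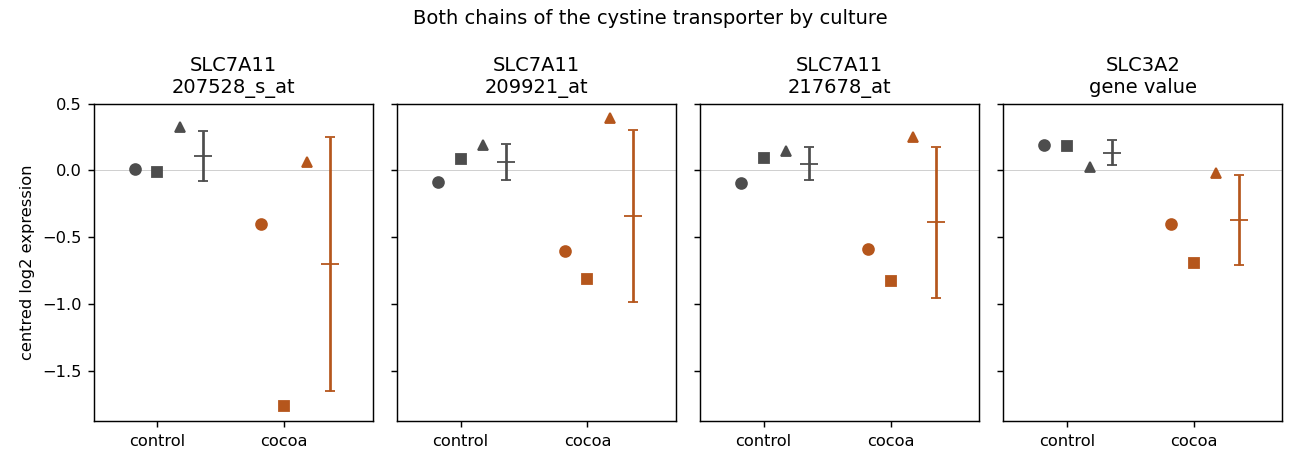
Centred log2 expression of the 3 SLC7A11 probe sets and of SLC3A2 in each culture, with circles, squares and triangles for replicates 1, 2 and 3 and bars for the mean ± SD of 3 arrays. In all 4 panels cocoa array 2 is lowest and cocoa array 3 is the highest of the cocoa arrays, from −1.769 to 0.060 in 207528_s_at.

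Around the members, 66 further genes of the pathway were listed by role, with earlier results of these data known. Of these, 62 were measured by probe sets with 1 symbol. The others were not analysed here. Of the 62, 7 rose and 10 fell, against 7.36% and 6.12% of all genes, and 45 did not pass. Their median log2 difference was −0.016, against −0.012 over all genes. The groups did not overlap in 29 of the 62, against 32.5% of all genes. The count of 17 fell to 6 with either RNA covariate (IDH1, AKR1B10, BLVRA, BLVRB, FOSL1 and TRIM16 in both fits) and to 7 without control array 2, and ran up to 16 without 1 array.

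Among the regulators 1 of 11 changed, against 13.5% of all genes. DPP3, a peptidase that binds KEAP1 and competes with NRF2 for it, rose by 0.27 on the log2 scale (SE 0.0694, limma adjusted p = 0.0332), a call lost in 5 of the 6 fits without 1 array (0.0284 to 0.121) and with the 18S covariate (0.139). Neither DPP3 probe set passed over all probe sets (limma adjusted p = 0.0842 and 0.0846). NFE2L1, the related factor of proteasome genes, was at 0.23 (adjusted p = 0.053), with all cocoa arrays above all controls. The adjusted p of NFE2L1 was 0.0441 after quantile normalisation. It was 0.191 with the 18S covariate, 0.172 with the 5′ to 3′ covariate and 0.0729 to 0.165 without 1 array. BACH1, the repressor that occupies ARE sites of HMOX1, gave 0.14 (0.237). MAFG, a small MAF partner of NRF2, gave −0.092 (0.476), and the autophagy adaptor SQSTM1, which binds KEAP1, gave −0.094 (0.496). The 5 probe sets of SQSTM1 ran from −0.31 to 0.16. Only the lowest, 213112_s_at, passed when probe sets were tested singly (limma adjusted p = 0.045).

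Genes that recycle glutathione and thioredoxin changed at a share near the 13.5% of all genes. In the glutathione group 1 of 10 fell, GSR, the reductase that restores glutathione (log2 difference −0.49, SE 0.122, limma adjusted p = 0.0271). The call of GSR was lost in 4 of the 6 fits without 1 array, and the difference was −0.32 with the 18S (adjusted p = 0.176) as with the 5′ to 3′ covariate (0.123). Neither GSR probe set passed over all probe sets (205770_at −0.73, limma adjusted p = 0.099, and 225609_at −0.26, 0.135). In the thioredoxin and peroxiredoxin group 1 of 7 fell, the mitochondrial thioredoxin TXN2 (−0.35, SE 0.0682, adjusted p = 0.00936). The adjusted p of TXN2 was 0.0539 without control array 2, 0.0599 with the 18S covariate, 0.0505 with the 5′ to 3′ covariate and 0.0507 without _s_at and _x_at probe sets. The median was 0.008 in the first group and −0.121 in the second. In the NADPH group 1 of 5 rose, IDH1, the cytosolic isocitrate dehydrogenase, from −0.174, −0.253 and −0.298 in the controls to 0.283, 0.302 and 0.196 with cocoa. The rise of IDH1 was 1.42-fold (0.50, SE 0.067, adjusted p = 0.00168) and was kept in all 6 fits without 1 array.

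**Figure D4:**
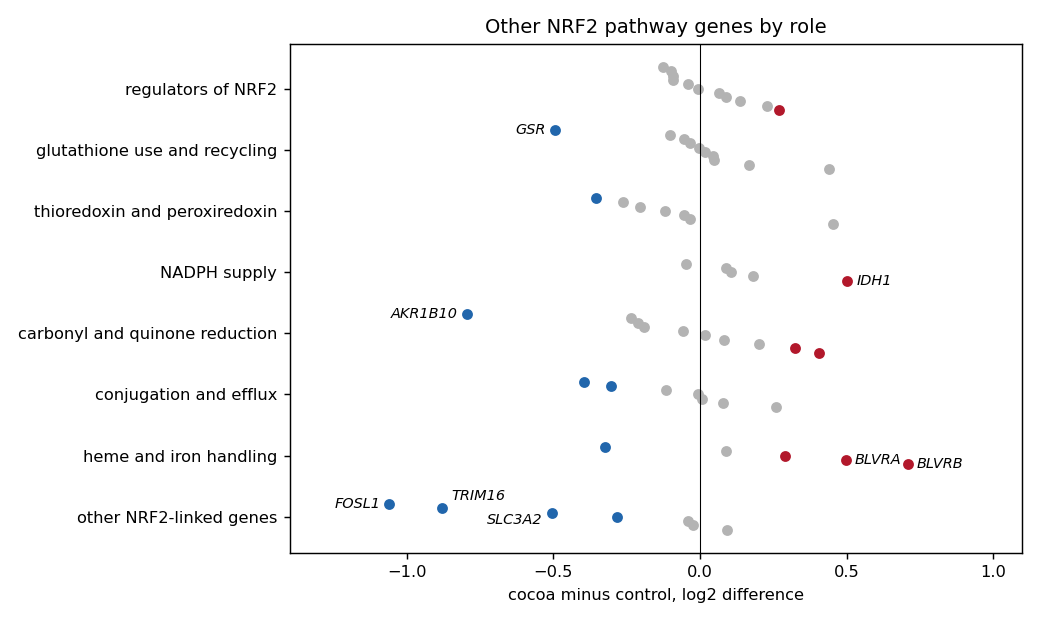
Log2 difference, cocoa minus control, of 62 other NRF2 pathway genes by role; red marks genes that rose and blue genes that fell at an adjusted p below 0.05, and grey the others, with names for called genes beyond 0.45 in either direction. Most points lie near 0, and the heme and iron group is the only one of the 8 with 3 genes that rose.

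In the carbonyl and quinone group 2 of 10 rose and 1 fell, against 7.36% and 6.12% of all genes. The gene that fell was AKR1B10, an aldo-keto reductase of lipid aldehydes and retinal, with 0.298, 0.359 and 0.301 in the controls and −0.298, −0.574 and −0.562 with cocoa. It was 1.74-fold lower (log2 difference −0.80, SE 0.0845, limma adjusted p = 0.000561), kept in all 6 fits without 1 array. EPHX1, microsomal epoxide hydrolase, rose by 0.41 (SE 0.0833, adjusted p = 0.0124), and AKR1C3, which reduces steroids and prostaglandins, by 0.32 (SE 0.0774, adjusted p = 0.0242, lost in 4 of the 6 fits without 1 array). When the 18S signal was a covariate, EPHX1 was at 0.0867 and AKR1C3 at 0.128. The single AKR1C3 probe set was at a limma adjusted p of 0.0594 over all probe sets. In the conjugation and efflux group 2 of 7 fell at gene level, ABCC1 and UGDH, against 6.12% of all genes that fell. ABCC1, a glutathione-conjugate pump, gave −0.40 (adjusted p = 0.0122, 0.0743 with the 18S covariate and 0.0598 without control array 2). UGDH, which makes the sugar donor of glucuronidation, gave −0.30 (adjusted p = 0.0212, 0.127 with that covariate). Its call was lost in 4 of the 6 fits without 1 array. The single UGDH probe set was at a limma adjusted p of 0.0556 over all probe sets. ABCB6 and ABCC3, named after their values were seen, did not pass as genes. In ABCB6 203191_at fell (−0.44, adjusted p over probe sets 0.0286) and 203192_at rose (0.42, 0.0294). In ABCC3 208161_s_at and 209641_s_at rose by 0.49 and 0.48 (0.0123 and 0.0247).

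In the heme and iron group 3 of 5 genes rose and 1 fell, against 13.5% of all genes that changed, and no test of the difference between groups was made. HMOX2, the constitutive heme oxygenase, read 0.129, 0.153 and 0.139 in the controls and −0.095, −0.242 and −0.209 with cocoa, and was 1.25-fold lower (log2 difference −0.32, SE 0.0658, limma adjusted p = 0.0122). Both oxygenases were thus lower, HMOX1 by 0.34 and HMOX2 by 0.32. The next enzymes of heme breakdown, the biliverdin reductases, were higher. BLVRB read −0.217, −0.419 and −0.485 in the controls and 0.385, 0.400 and 0.217 with cocoa, a 1.63-fold rise (0.71, SE 0.088, adjusted p = 0.00122).

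BLVRA rose 1.41-fold (log2 difference 0.50, SE 0.0599, limma adjusted p = 0.00103), with −0.218 to −0.239 in the controls and 0.245 to 0.302 with cocoa. Its 5 probe sets disagreed: 203771_s_at, 203773_x_at and 211729_x_at gave 0.63, 0.95 and 0.80, and 229109_s_at and 203772_at gave 0.034 and 0.067. Only 203772_at carries no suffix for several transcripts, and without the others the adjusted p of BLVRA was 0.683. FECH, ferrochelatase, which inserts iron in the last step of heme synthesis, rose by 0.29 (SE 0.0685, adjusted p = 0.0231, lost in 4 of the 6 fits without 1 array) and was named after its values were seen. FTL, the ferritin light chain, gave 0.088 (adjusted p = 0.397). BLVRA and BLVRB kept their call in all 6 fits without 1 array and with the 18S covariate (0.0106 and 0.0103). HMOX2 was at 0.0891 and FECH at 0.14 with that covariate, and HMOX2 at 0.059 without control array 2.

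**Figure D5:**
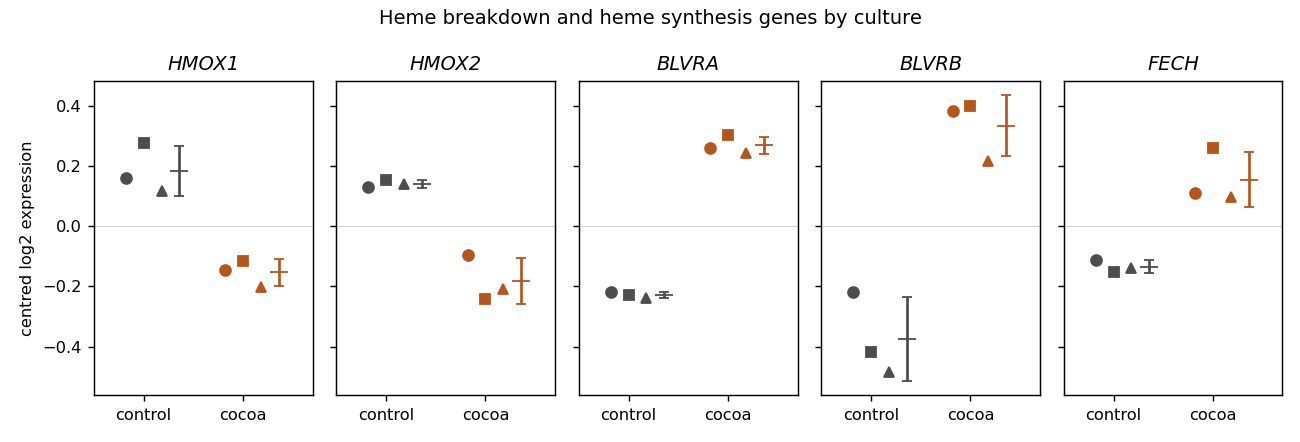
Centred log2 expression of HMOX1, HMOX2, BLVRA, BLVRB and FECH in each culture, with circles, squares and triangles for replicates 1, 2 and 3 and bars for the mean ± SD of 3 arrays. HMOX1 and HMOX2 lie lower in all 3 cocoa cultures than in any control, and BLVRA, BLVRB and FECH lie higher.

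Of the 7 other genes linked to NRF2, 4 fell, against 6.12% of all genes. None rose (0 at an unadjusted limma p below 0.05), against 7.36% of all genes, and 3 did not pass. The list was drawn up with earlier results of these data known, so the count is not read as a result about the group. FOSL1, an AP-1 subunit, was 2.09-fold lower (log2 difference −1.06, SE 0.0864, limma adjusted p = 0.000124). TRIM16, a ubiquitin ligase of the proteotoxic stress response, was 1.84-fold lower, from 0.385, 0.436 and 0.228 in the controls to −0.228, −0.674 and −0.691 with cocoa (−0.88, SE 0.123, adjusted p = 0.00208). SLC3A2 is given with SLC7A11. OSGIN1, an oxidative stress-induced growth inhibitor, fell by 0.28 (SE 0.072, adjusted p = 0.0309, 0.184 with the 18S covariate, and past the threshold in 1 of the 6 fits without 1 array) and was named after its values were seen. Over all probe sets, the single probe set of OSGIN1 was at a limma adjusted p of 0.0747. FOSL1 and TRIM16 kept their calls in all 6 fits without 1 array.

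Across all genes, the patterns nearest to PIR over the 6 arrays, by Pearson r, were those of TMEM254 (r = 0.999), QPCT (0.999) and WDR45 (0.998), and 691 genes had an r above 0.95. Those nearest to HMOX1 were NACC1 (0.998), PDE10A (0.996) and ECD (0.996), with 248 genes above 0.95. QPCT, glutaminyl cyclase, rose by 0.58 on the log2 scale and NACC1 fell by 0.28. On 6 arrays in 2 groups such an r mostly restates the difference between the groups.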

How the data were processed

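RNA of 6 HT29 cultures was read on U133 Plus 2.0 oligonucleotide arrays from Affymetrix. Per the submitters' processing notes, the authors derived the deposited log2 values with RMA, a method that subtracts background, equalises the arrays' distributions and joins the probes of a set. The series text names GeneSpring GX, and neither source states a version. The deposited table holds 54675 probe sets from −2.42 to 4.02, each centred on its median over the arrays (largest absolute median 5.0e-07). That the base is 2 follows from RMA, since the table does not name it. Without 62 control probe sets, the platform annotation gave 1 symbol for 41091, more than 1 for 1801 and none for 11721. Gene values are means over single-symbol probe sets.

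Cocoa minus control was tested with limma 3.58.1 (lmFit, eBayes) in R 4.3.3 over all 19775 genes and, separately, all 54613 probe sets, at a Benjamini-Hochberg adjusted p below 0.05; "rose", "fell" and "changed" refer to it. Within-group SDs are over 3 arrays. The steps were tested on simulated data. Named genes were all members, up to 3 changed genes of each role group by size, NFE2L1, BACH1, MAFG, SQSTM1 and AKR1B10. FECH, OSGIN1, ABCB6 and ABCC3 were added after their values were seen. FTL, which did not pass, was also named outside this rule. The members and lists were chosen with earlier results of these data known. Alternatives were a replicate block, a robust prior, array weights, quantile normalisation, array centring, 18S and 5′ to 3′ covariates, the median of probe sets, removal of _s_at and _x_at probe sets, a fold of at least 1.5, leaving out each array and, added after the data were seen, leaving out cocoa arrays 2 and 3 together. No filter on low values was possible on centred data.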

Additional observations from a re-analysis of the deposited data

Results flagged for a closer look

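The 18S ribosomal RNA control probe sets enter no comparison. Their signal was 3.31 in cocoa array 2 and 1.40 in cocoa array 3, higher than in any control, where it reached 0.51. With this signal as a covariate, both changed members kept their call at gene level, and 6 of the 17 other pathway genes did. HMOX1 was then close to the threshold (limma adjusted p = 0.0449), and its single probe set did not pass over all probe sets (0.113).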

How the results depend on the processing

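Of the 10 member genes, none changed sign at gene level in any alternative. The count of 2 changed members became 1 without _s_at and _x_at probe sets, which leave out PIR and NQO1, and 1 at a fold of at least 1.5, and ran from 1 to 3 without 1 array. The count of 4 member probe sets became 1 with the replicate block, with the 18S covariate, with the 5′ to 3′ covariate, at a fold of at least 1.5 and without cocoa arrays 2 and 3, and ran from 1 to 3 without 1 array. Of all genes 1103 changed with the 18S covariate, 1411 with the 5′ to 3′ covariate, 845 without cocoa arrays 2 and 3 and 1315 to 2881 without 1 array, against 2666. Of all probe sets 2078 changed with the replicate block, 1314 with the 18S covariate, 1809 with the 5′ to 3′ covariate, 858 without cocoa arrays 2 and 3 and 1416 to 4602 without 1 array, against 4358. Of the 62 other pathway genes 6 changed with either covariate, 8 without cocoa arrays 2 and 3 and 7 to 16 without 1 array, against 17. The causes were not tested; fits without arrays rest on fewer samples.

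Sign changes occurred in 6 probe sets, none past the threshold in any of these fits. The differences were −0.1091 for 1567015_at of NFE2L2 without cocoa arrays 2 and 3 and −0.0621 to 0.1020 without 1 array. For 201146_at of NFE2L2 they were −0.0373 (18S), −0.0278 (5′ to 3′), −0.0992 without cocoa arrays 2 and 3 and −0.0311 to 0.0622 without 1 array. For 201467_s_at of NQO1 they were 0.0074 (quantile), 0.0006 (array centring), 0.1548 (18S), 0.1394 (5′ to 3′), 0.1804 without cocoa arrays 2 and 3 and −0.1000 to 0.0903 without 1 array. For 210519_s_at of NQO1 they were −0.0308 to 0.0919 without 1 array. For 1555330_at of GCLC they were 0.0010 (18S), 0.0332 (5′ to 3′), 0.1564 without cocoa arrays 2 and 3 and −0.1725 to 0.0301 without 1 array. For 236140_at of GCLM they were −0.0225 (array weights), −0.0384 (18S), −0.0207 (5′ to 3′) and −0.0249 to 0.0625 without 1 array.

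The replicate numbers are shared by the groups, but the deviations of same-numbered arrays from their group means correlated at −0.21, −0.0596 and −0.00337, so the numbers were not taken as pairs. With the replicate block 1947 genes changed, and both changed members kept their call at gene level. The single HMOX1 probe set did not pass over all probe sets in that fit (limma adjusted p = 0.0812). The number of arrays limits the precision, and signal over background is unknown.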

Other observations

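Because SLC7A11 is also a known target of ATF4, the transcription factor of the amino acid and unfolded protein stress response, 20 genes linked to ATF4 were read after the split between cocoa arrays had been seen. By limma none rose (1 at an unadjusted p below 0.05), 6 fell and 14 did not pass, where 7.36% of all genes rose and 6.12% fell. The median log2 difference was −0.146, against −0.012 over all genes. ATF4 itself read −0.559, −0.691 and −0.012 in cocoa arrays 1, 2 and 3 and 0.012 to 0.068 in the controls, the same order of cocoa arrays as SLC7A11. Its log2 difference was −0.45 (limma adjusted p = 0.0787). PSAT1, a serine synthesis enzyme, had −0.386, −0.487 and 0.299, and ASNS, asparagine synthetase, −0.469, −0.345 and 0.287. DDIT3, the stress factor CHOP, had −0.427, −0.345 and 0.421. In these 3 genes, as in SLC7A11, cocoa arrays 1 and 2 lay below all controls and cocoa array 3 above them. The same split was seen in TRIB3, PHGDH and VEGFA of the list. How many of all genes show it was not counted. The 6 genes that fell did not show this split. In ATF3, SHMT2, SLC7A5, SLC3A2, PPP1R15A and XPOT every cocoa array, array 3 included, lay below all controls.

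CHAC1, an enzyme that degrades glutathione, read −0.148, 0.114 and 1.333 in cocoa arrays 1, 2 and 3, and NUPR1, a stress-induced chromatin protein, 0.026, 0.142 and 1.537, against −0.017 to 0.009 and −0.186 to −0.026 in the controls. Both were thus highest in cocoa array 3, and neither passed the test of the groups (adjusted p = 0.421 and 0.222). The median SD among cocoa arrays was 0.219 over the 20 genes and 0.0956 over all genes. Of the 20, 7 had the order of SLC7A11, with array 3 highest and array 2 lowest of the cocoa arrays, as had 12.3% of all genes. Since the list was chosen after the split of SLC7A11 had been seen, this count is no test of a shared pattern. The 3 genes whose pattern over the 6 arrays was nearest to SLC7A11 were EIF1 (r = 0.998), a factor of start codon selection, TMEM92-AS1 (0.995) and MED24 (0.991).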
